A study of Mus musculus with 8 samples.

Results

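This is an account of the chemokines and chemokine receptors in 8 mouse prostate tumours. Genes were taken by symbol: names that begin with Ccl, Cxcl, Ccr, Cxcr or Ackr and a digit, with Cx3cl1, Cx3cr1, Xcl1 and Xcr1. The deposited tables hold 59 such genes of 24028, 36 of them ligands and 23 receptors, and 51 (31 ligands and 20 receptors) had enough fragments to be tested. The Ccl21 genes were not analysed here.

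Each tumour grew from 1000000 TRAMP-C2 cells, an established prostate adenocarcinoma line from a TRAMP transgenic mouse, placed in the dorsolateral prostate of a male C57BL/6 host with a working immune system. The 4 aged hosts (mice 46, 47, 50 and 51) were 20 to 24 months old and the 4 young hosts (mice 36, 37, 40 and 43) were 4 months old. Tumours were taken 30 to 45 days after injection, and the day for each tumour is not given in the sources used here. The comparison asks how tumours of the same cell line differ between hosts of different age. All groups carry the same line, so the model limits what is seen to 1 line in 1 strain, and host cells and injected cells were measured together as bulk mRNA.

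Chemokines are small secreted proteins that guide migrating cells, chiefly leukocytes, along a gradient. They act through receptors coupled to G proteins, and the atypical receptors (Ackr genes) bind chemokines without that coupling and remove or move them. The inflammatory chemokines are induced by cytokines in macrophages, stromal cells and tumour cells, while homeostatic ones such as Cxcl12 are made steadily. Many ligands share a receptor, and many receptors bind more than 1 ligand, so the genes are described below by receptor axis.

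The libraries held 27054498 to 35729488 fragments, at which 3 fragments equal 0.084 to 0.111 CPM (counts per 1000000). Transcripts of seminal vesicle were far higher in young 36 (36946 CPM summed over 7 genes) and aged 50 (21249 CPM) than in the other 6 tumours (at most 17.1 CPM), and skeletal muscle transcripts were highest in aged 51 (107 CPM summed over 5 genes, against 9.29 to 36.5 CPM). The labels call the cells epithelial, and epithelial markers were uneven. Krt8, a simple-epithelium keratin, stood at 39.2, 67.4, 118 and 21.5 CPM in aged tumours and 124, 99.9, 48 and 30.7 CPM in young tumours, and Epcam, an epithelial adhesion molecule, at 22.7, 38.04, 69.4 and 8.67 CPM (aged) and 27.3, 52.5, 4.54 and 0.6997 CPM (young). Throughout, the 4 values of a group follow the order aged 46, 47, 50 and 51 or young 36, 37, 40 and 43.

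Of the 51 tested genes, 0 passed edgeR's quasi-likelihood test between host ages at a Benjamini-Hochberg adjusted p of 0.05. The share of all 14575 tested genes that passed, called the background below, was also 0%. At an unadjusted p under 0.05, edgeR found 5 of the 51, beside a background of 4.99%. These were Ccl6, Ccl24, Cxcl13 and Cxcr2 with higher values in aged tumours (4 of 51, background 2.34%) and Cxcl10 with lower values (1 of 51, background 2.66%). Ccl24 reached the count filter in the aged tumours only, so it had to be higher there. DESeq2 called 1 of the 51 after adjustment, Ccl6, beside a background of 0.295%, and voom called 0 (background 0.0617%). Without adjustment DESeq2 found 5 higher (background 2.95%) and 1 lower (background 3.07%), in all 6 against 6.02%, and voom 11 higher (background 5.64%) and 3 lower (background 6.27%), in all 14 against 11.9%. The median log2 fold change was 0.05 over the 51 and 0.03 over all genes tested, and 28 of the 51 were positive (background 55.3%) and 23 negative (background 44.7%). A log2 fold change over 1 in size was found in 8 of the 51, or 15.7%, against a background of 3.62%. Among the 8 were Ccl24, Ccr3, Ackr4, Xcl1 and Cxcl15, which had few fragments and wide errors. Their average log2 CPM was at most 0.90 and their SE 0.49 to 1.20. Fold changes are aged minus young throughout, and all that follows on single genes is a description of values that did not pass edgeR.

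The aged tumours differed widely among themselves. Over the 51 genes, aged 51 was the lowest of the 8 tumours for 21, young 43 for 14 and aged 46 for 13, while aged 50 was the highest for 18 and aged 47 for 10. Over all genes tested the corresponding shares were 21%, 16.6% and 19.3% for the lowest and 19.8% and 4.12% for the highest place, against 41.2%, 27.5% and 25.5% and 35.3% and 19.6% over these genes. The median gene of the family lay 0.95 below its own mean on the log2 scale in aged 51, 0.70 below in aged 46 and 0.54 below in young 43. It lay 0.70 above in aged 50 and 0.56 above in aged 47. The mean log2 CPM of 10 T cell markers was 1.32, 3.15, 3.73, 1.66, 2.77, 2.01, 3.14 and 1.60 from aged 46 to young 43, with aged 46, aged 51 and young 43 again the lowest, and its part in the chemokine values was not tested. In bulk tissue, fewer cells of a type and less RNA per cell cannot be told apart.

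**Figure D1:**
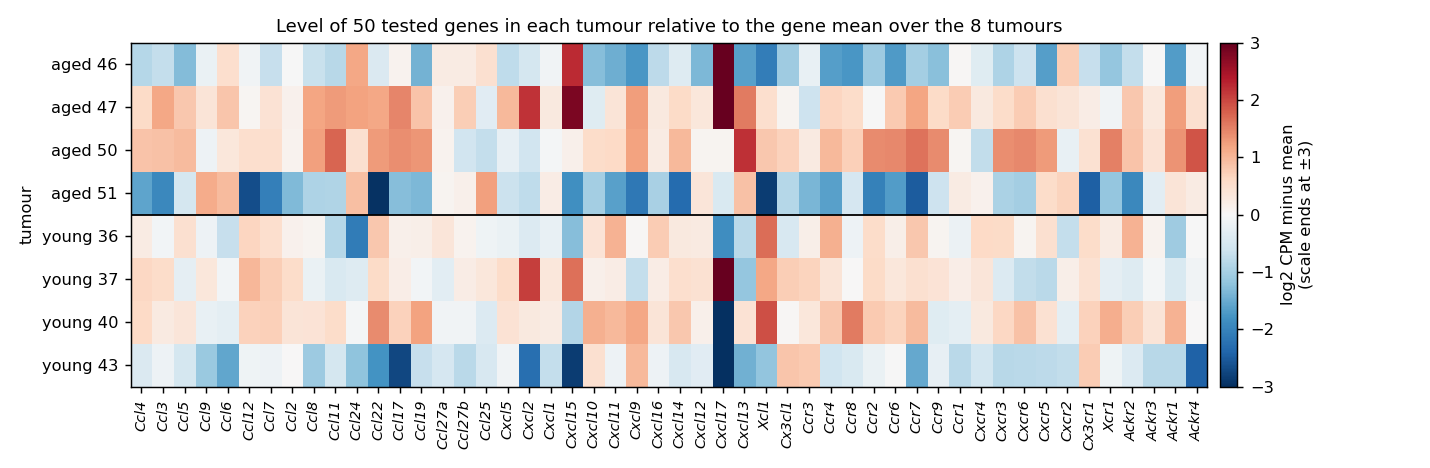
Level of 50 of the 51 tested genes (columns, grouped by role, ligands first) in each tumour (rows), as log2 CPM minus the gene's mean over the 8 tumours. Most columns are blue in aged 46, aged 51 and young 43 and red in aged 47 and aged 50, and the 2 low and 2 high aged tumours stand out.

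The summed ligand message overlapped between the ages. Summed over the 36 ligands it was 629, 1579, 1477 and 889 CPM in aged tumours and 1095, 1210, 1336 and 798 CPM in young tumours, or 1144 ± 458 and 1110 ± 229.7 CPM (SD, n = 4 each). The aged tumours held both the lowest and the highest value. Summed over the 23 receptors, the level was 278, 499, 595 and 201 CPM in aged and 500.3, 492, 576 and 413 CPM in young tumours. Aged 46 and aged 51 lay below all young tumours and aged 50 above them. Per transcript length, Ccl8 was the most abundant ligand, with a median of 208 FPKM (CPM per kilobase of transcript) over the 8 tumours, followed by Ccl7 (79.98 FPKM), Ccl12 (70.99 FPKM), Ccl5 (69.6 FPKM), Ccl6 (66.3 FPKM) and Ccl2 (66.1 FPKM). The ranges of the last 5 over the tumours overlap, so their order is not resolved. Among the receptors described here the highest medians were those of Cx3cr1 (42.7 FPKM), Cxcr4 (21.1 FPKM) and Ccr1 (19.5 FPKM).

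**Figure D2:**
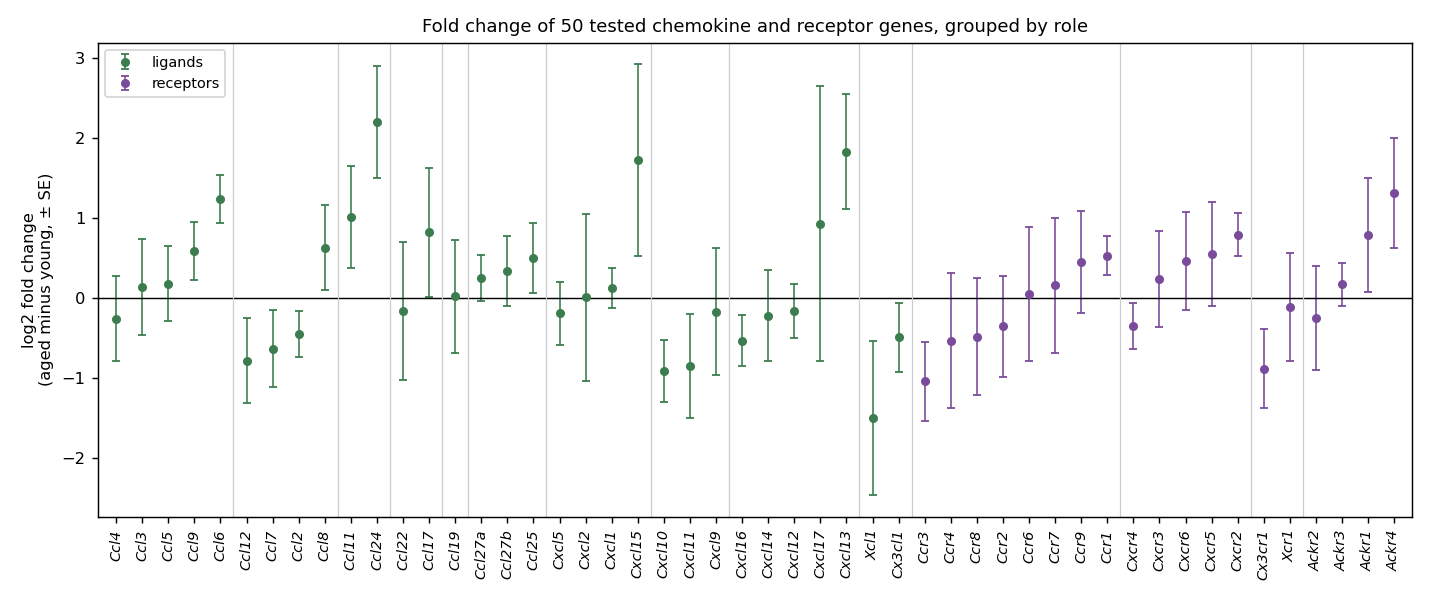
Log2 fold change (aged minus young, bars are SE, n = 4 tumours each) of 50 of the 51 tested genes, grouped by role with ligands in green and receptors in purple. The values run from -1.50 (Xcl1) to 2.20 (Ccl24), and Ccl6, at 1.24 ± 0.30, is farthest from 0 in units of its error.

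Ccl6 was higher in every aged tumour than in any young tumour, and its neighbour Ccl9 overlapped between the ages. Both are rodent CC chemokines of myeloid cells that signal through Ccr1, and they lie side by side on chromosome 11 (Ccl9 at chr11:83572917-83578636 and Ccl6 at chr11:83587886-83593087, RefSeq on GRCm38). Ccl6 stood at 112, 155, 111 and 156 CPM in aged tumours and 49.7, 79.1, 71.4 and 28.8 CPM in young tumours. All 4 aged tumours were above all 4 young tumours, and such a separation was found in 2 of the 51 genes (Ccl6 and Ccl24, background 3.66%), both higher in aged (background 1.35%) and 0 lower (background 2.31%). Ccl24 passed the count filter only through the aged tumours, so its separation supports nothing. The log2 fold change of Ccl6 was 1.24 ± 0.30 (SE, edgeR adjusted p = 0.845). Across 17 alternatives, which included other fits and each tumour left out in turn, it ranged from 1.02 to 1.44 and its adjusted p from 0.017 (DESeq2) to 1. Together, Ccl6 and Ccl9 made up 30.3, 17.9, 13.5 and 39.5% of the ligand CPM in aged and 12.01, 16.4, 11.6 and 9.09% in young tumours, a share chosen after the values were seen.

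Ccl9 stood at 78.5, 127, 87.9 and 196 CPM in aged and 81.8, 119, 83.9 and 43.8 CPM in young tumours, a log2 fold change of 0.59 ± 0.36. The groups overlap, and without aged 51, the highest, it was 0.23. Within each tumour the ratio of Ccl6 to Ccl9 CPM was 1.43, 1.22, 1.27 and 0.794 in aged and 0.608, 0.665, 0.8505 and 0.657 in young tumours. This ratio was chosen after the values were seen and is given without a test. Aged 51, at 0.794, is the aged tumour that lies within the young range.

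Ccr1, their receptor on monocytes, macrophages and neutrophils, stood at 51.96, 94.7, 58.5 and 60.8 CPM in aged and 45.5, 61.6, 45.8 and 31.3 CPM in young tumours. Its log2 fold change was 0.53 ± 0.24 (edgeR adjusted p = 0.923), and in CPM young 37 lay above 3 of the aged tumours. After scaling with TMM factors, young 37 and aged 51 were nearly level (5.95 and 5.99 log2 CPM). Of 4 monocyte markers 0 passed after adjustment by edgeR (background 0%). Chil3 and F13a1 had an unadjusted p under 0.05 with higher values in aged tumours, 2 of 4 against a background of 2.34%. The others, Ly6c2 and Plac8, had negative log2 fold changes of -0.59 and -0.45. Chil3, a lectin of monocytes and some macrophages, stood at 10.1, 22, 9.202 and 20.5 CPM in aged and 2.29, 3.95, 7.28 and 2.99 CPM in young tumours. The 4 summed to 177 to 233 CPM in aged and 59.98 to 218 CPM in young tumours. Most of the sum in aged 46 and aged 51 was F13a1. It stood at 156, 105, 88.2 and 155 CPM in aged and 41.8, 121, 55.03 and 33.03 CPM in young tumours. Of 8 macrophage markers 7 had a negative log2 fold change (background 44.7%). The 8 summed to 1450, 3233, 2929 and 2031 CPM in aged and 3137, 3030, 3172 and 2266 CPM in young tumours. Their part in the Ccl6 values was not tested.

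The remaining ligands of the Ccr1 group varied within the aged group. Ccl5, a chemokine of T cells, NK cells and macrophages, stood at 13.1, 61.8, 68.3 and 22.6 CPM in aged and 46, 28.1, 45.8 and 23.8 CPM in young tumours. In CPM, aged 46 and aged 51 were below and aged 47 and aged 50 above every young tumour. After scaling with TMM factors, aged 51 and young 43 were level (4.57 and 4.56 log2 CPM). Ccl3 stood at 1.92, 7.87, 6.51 and 0.794 CPM in aged and 3.02, 4.95, 4.19 and 3.08 CPM in young tumours. Ccl4 stood at 2.51, 7.51, 9.23 and 1.52 CPM (aged) and 5.58, 7.54, 7.69 and 3.64 CPM (young), and both genes, neighbours made by activated macrophages and lymphocytes, had the same 2 low aged tumours as Ccl5.

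**Figure D3:**
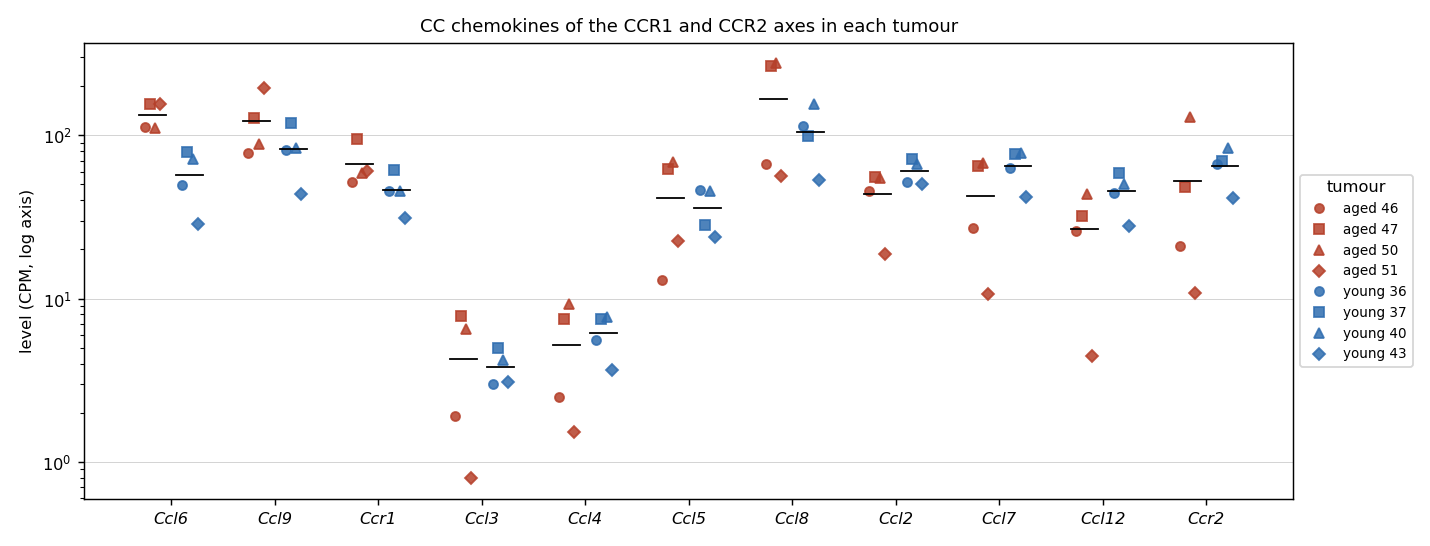
Level in CPM (log axis) of ligands and receptors of the CCR1 and CCR2 axes. Each symbol is 1 tumour, red for aged and blue for young, and the black line is the group mean. The 4 aged tumours lie above the 4 young tumours for Ccl6, while for Ccl2, Ccl7 and Ccl12 aged 51 (red diamond) lies far below the rest.

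The 4 genes grouped here as ligands of Ccr2, a receptor that brings monocytes out of bone marrow and blood, did not share a direction. The grouping came from a list, and binding of Ccl8 to Ccr2 was not tested. Ccl2, Ccl7 and Ccl12 had negative fold changes and Ccl8 a positive one. Ccl2, Ccl7, Ccl12 and Ccl8 lie on chromosome 11 in a stretch from 82035577 to 82116799 that also holds Ccl11. Ccl2, the main monocyte attractant, stood at 45.8, 55.8, 55.1 and 18.8 CPM in aged and 51.4, 71.9, 67.1 and 50.01 CPM in young tumours, a log2 fold change of -0.45 ± 0.29. Ccl7 stood at 26.9, 64.8, 67.6 and 10.6 CPM (aged) and 62.99, 77.1, 77.9 and 41.8 CPM (young), with -0.63 ± 0.48. Ccl12, a mouse gene close to Ccl2, stood at 26.1, 32.1, 43.96 and 4.43 CPM (aged) and 44.5, 59.1, 50.3 and 27.8 CPM (young), with -0.78 ± 0.53. In each of these 3 genes aged 51 was the lowest of all tumours, and in CPM aged 46 was also below all young tumours. After scaling with TMM factors, Ccl12 was level in aged 46 and young 43 (4.79 and 4.78 log2 CPM). Without aged 51 the log2 fold changes were -0.21 for Ccl2, -0.32 for Ccl7 and -0.43 for Ccl12.

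Ccl8, which lies next to Ccl12, had a positive fold change. It stood at 66.7, 267, 276 and 56.4 CPM in aged and 114, 98.5, 156 and 53.4 CPM in young tumours, with a log2 fold change of 0.63 ± 0.53 (edgeR adjusted p = 0.923). It was 0.30 without aged 50 and 0.32 without aged 47. Aged 47 and aged 50 were above all young tumours, and the other aged tumours were near the lowest young tumour. As a share of the CPM of the 4 genes of this group, Ccl8 took 40.3, 63.6, 62.3 and 62.5% in aged tumours and 41.8, 32.1, 44.4 and 30.9% in young tumours. The ratio of Ccl8 to Ccl12 CPM was 2.55, 8.31, 6.27 and 12.7 in aged and 2.56, 1.67, 3.098 and 1.92 in young tumours. Both ratios were chosen after the values were seen and carry no test. Aged 46 lay within the young range in both, and the other 3 aged tumours lay above all young tumours in both.

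Ccr2 itself stood at 20.9, 48.3, 129 and 10.9 CPM in aged and 66.5, 69.3, 84.1 and 41.2 CPM in young tumours. Aged 50 was the highest and aged 51 the lowest of the 8, and the log2 fold change of -0.35 ± 0.63 was -0.02 without aged 51 and -1.28 without aged 50. Ly6c2 and Plac8 are genes of the classical monocytes that carry Ccr2. Ly6c2 stood at 5.698, 15.7, 34.3 and 8.77 CPM in aged and 34.6, 14.4, 40.4 and 6.24 CPM in young tumours, and Plac8 at 5.79, 38.4, 101 and 13.9 CPM (aged) and 64.03, 77.99, 51.3 and 17.7 CPM (young). Both were lowest in aged 46, and aged 51 and young 43 were also low.

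The stretches upstream of the start sites of Ccl12 and Ccl8 are shown because these neighbours differ in their pattern over the tumours. They are the 250 bases before the RefSeq start on GRCm38.p6, chr11:82101595-82101844 and chr11:82114935-82115184, both on the plus strand, and capitals mark matches to TATAAA.
Ccl12: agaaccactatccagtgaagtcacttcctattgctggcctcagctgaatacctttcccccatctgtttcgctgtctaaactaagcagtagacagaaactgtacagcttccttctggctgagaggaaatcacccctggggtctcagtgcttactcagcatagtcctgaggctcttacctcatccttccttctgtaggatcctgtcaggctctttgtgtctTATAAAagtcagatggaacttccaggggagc
Ccl8: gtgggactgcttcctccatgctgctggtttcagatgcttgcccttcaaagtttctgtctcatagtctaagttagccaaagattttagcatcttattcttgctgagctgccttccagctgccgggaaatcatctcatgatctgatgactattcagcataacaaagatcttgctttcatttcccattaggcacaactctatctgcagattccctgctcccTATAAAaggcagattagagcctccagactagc
TATAAA was searched on the gene's strand and occurred in 12 of 51 upstream stretches of these genes and in 7.59% of 32841 stretches of all genes. Promoters were held for 44 of the 59 genes, some with several starts. Both sequences hold the match at nearly the same distance, from -31 to -26 in Ccl12 and from -32 to -27 in Ccl8, counted back from the start.

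Among the ligands of Ccr3, the eosinophil receptor, Ccl11 had a higher mean in aged tumours. Ccl11 (eotaxin), a stromal chemokine, stood at 2.23, 10.9, 14.9 and 2.15 CPM in aged and 2.22, 3.07, 6.52 and 2.94 CPM in young tumours, with a log2 fold change of 1.01 ± 0.64 that was 0.46 without aged 50 and 0.30 without aged 50 and young 36. Aged 47 and aged 50 were above all young tumours, and the other aged tumours were close to the lowest young tumour. Ccl24, a macrophage product also called eotaxin 2, was near the limit of the data, with 17, 18, 12, 13, 0, 4, 6 and 2 fragments from aged 46 to young 43. All 4 aged tumours were above all young tumours (edgeR adjusted p = 0.923). Ccl24 passed the count filter only through the aged tumours, so this separation supports nothing. Its level was too low for the naming rule, and it was chosen after its values were seen. Ccr3 stood at 0.217, 0.164, 0.365 and 0.0662 CPM in aged and 0.312, 0.481, 0.381 and 0.532 CPM in young tumours, lower in 3 aged tumours than in any young tumour. These were 7, 5, 13 and 2 fragments in aged and 9, 13, 11 and 19 in young tumours, also near the limit of the data. Of 3 eosinophil markers, Epx had 0 fragments in 7 of the 8 tumours and Prg2 was at most 0.701 CPM, and Siglecf stood at 1.15, 1.21, 0.8697 and 0.0331 CPM in aged and 0.347, 0.8501, 0.9703 and 0.5598 CPM in young tumours. Their part in these values was not tested.

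The interferon-induced ligands of Cxcr3, which draw activated T cells and NK cells, had lower mean levels in aged tumours with a wide spread. Cxcl10 stood at 16.5, 34.2, 64.8 and 19.9 CPM in aged and 53.7, 47.4, 91.97 and 59.7 CPM in young tumours, with 3 aged tumours below all young ones and aged 50 among them. Its log2 fold change was -0.91 ± 0.39 (edgeR adjusted p = 0.923). Cxcl9 stood at 13.8, 120.3, 118 and 10.4 CPM in aged and 48.3, 29.5, 114 and 96.9 CPM in young tumours. Its aged values formed a low and a high pair, and the fold change of -0.17 ± 0.79 turned to 0.16 without aged 46, 0.18 without aged 51, 0.12 without young 40 and 0.01 without young 43. Cxcl11, of which C57BL/6 mice carry an allele that makes no full-length protein, stood at 0.155, 0.787, 0.926 and 0.132 CPM in aged and 1.18, 0.665, 1.21 and 0.504 CPM in young tumours. A processed pseudogene shares 1582 exon bases with it on the opposite strand, so its counts are uncertain.

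Cxcr3 stood at 1.301, 4.07, 7.32 and 1.29 CPM in aged and 3.81, 1.996, 4.297 and 1.48 CPM in young tumours. Aged 46 and aged 51 were again the lowest and aged 50 the highest. The summed level of 14 other interferon gamma targets was 288, 885, 1362 and 313 CPM in aged and 775, 647, 1117 and 783 CPM in young tumours, with aged 50 the highest. Of these 14, 13 had a negative log2 fold change (background 44.7%). By edgeR 0 passed the adjusted threshold and 0 had an unadjusted p under 0.05 (background 4.99%). NK cell markers summed to 1.24, 6.46, 9.06 and 1.89 CPM in aged and 4.85, 3.73, 6.76 and 2.32 CPM in young tumours. Eomes alone made up 2.89 CPM in aged 47 and 4.97 CPM in aged 50. Of the 4 tested NK markers, Eomes had a positive log2 fold change (0.72). The other 3 were negative, at -1.34 (Ncr1), -0.60 (Klrb1c) and -0.10 (Klrd1). Aged 46 and aged 51 were low in the ligands, the receptor, the interferon targets and the NK markers alike, and the part of the cells and of interferon in the chemokine values was not tested.

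The stretches upstream of Cxcl10 and Cxcl9 are shown because both were lowest in aged 46 and aged 51. They are 250 bases on the minus strand of GRCm38.p6, chr5:92348890-92349139 and chr5:92328080-92328329. Capitals mark matches to the interferon-stimulated response element core (GAAA, any 2 bases, GAAA), the interferon gamma activation site TTCNNNGAA and the kB consensus on either strand, and to TATAAA.
Cxcl10: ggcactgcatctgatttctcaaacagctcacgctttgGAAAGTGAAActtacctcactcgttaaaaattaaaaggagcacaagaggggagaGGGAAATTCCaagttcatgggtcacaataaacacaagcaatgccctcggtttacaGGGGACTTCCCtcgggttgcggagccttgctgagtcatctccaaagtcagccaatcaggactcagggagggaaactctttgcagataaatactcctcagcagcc
Cxcl9: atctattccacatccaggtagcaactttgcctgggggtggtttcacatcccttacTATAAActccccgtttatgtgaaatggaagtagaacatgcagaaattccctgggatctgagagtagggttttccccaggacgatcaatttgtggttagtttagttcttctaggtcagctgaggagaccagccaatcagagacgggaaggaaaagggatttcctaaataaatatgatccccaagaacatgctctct
In Cxcl10 the response element core matched from -213 to -204 (GAAAGTGAAA), and kB matches began at -159 and, overlapping each other, at -104 and -103. The Cxcl9 stretch held a TATAAA match from -195 to -190 and no match to the other 3 motifs within these 250 bases. The response element core occurred in 2.98% of all 32841 stretches and in 3 of the 51 of these genes (Cxcl10, Ccl19 and Cxcl14). The kB consensus occurred in 7.25% of all stretches and in 11 of the 51, and the activation site in 7.02% and 4 of the 51.

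**Figure D4:**
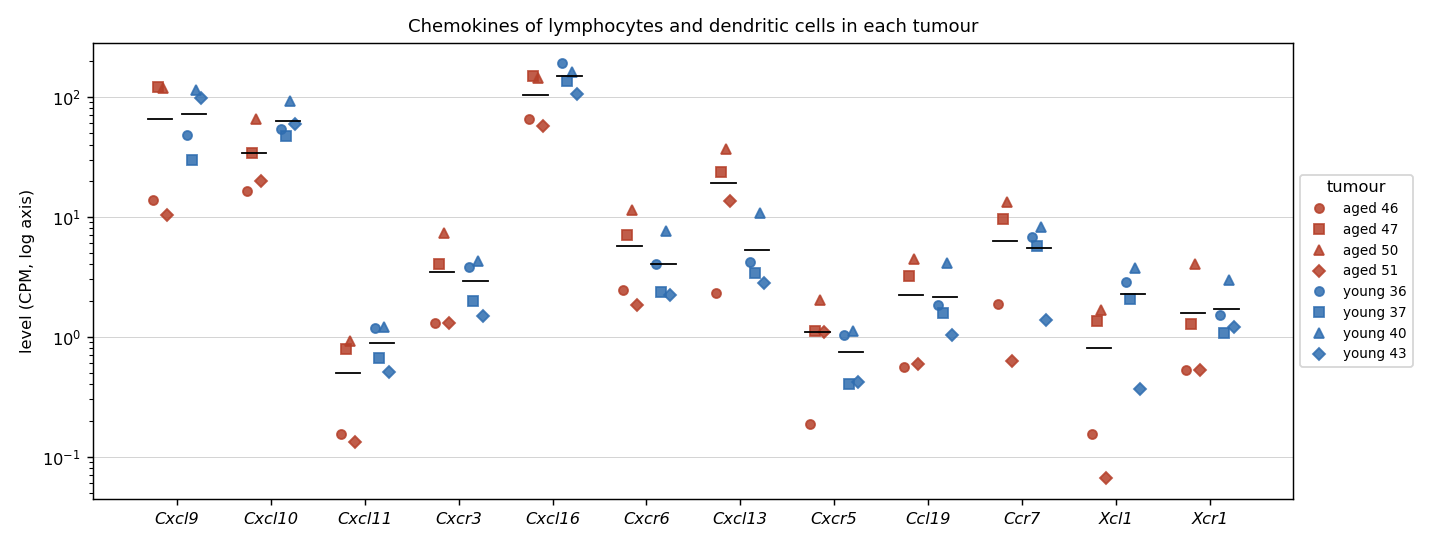
Level in CPM (log axis) of ligands and receptors that guide lymphocytes and dendritic cells. Each symbol is 1 tumour, red for aged and blue for young, with black lines at the group means. Aged 46 (red circle) and aged 51 (red diamond) are at the bottom of the aged values for Cxcl9, Cxcl10, Cxcr3, Cxcr6, Ccr7, Xcl1 and Xcr1, and Cxcl13 is above the young range in aged 47, aged 50 and aged 51.

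Cxcl13, which guides B cells and follicular T cells through Cxcr5, had an unadjusted p under 0.05. It stood at 2.32, 23.6, 36.7 and 13.5 CPM in aged and 4.16, 3.401, 10.8 and 2.83 CPM in young tumours, with a log2 fold change of 1.83 ± 0.72 (edgeR adjusted p = 0.923). Aged 47, aged 50 and aged 51 were above all young tumours, and aged 46, at 2.32 CPM, was below them. Cxcr5 stood at 0.186, 1.11, 2.02 and 1.09 CPM in aged and 1.04, 0.407, 1.11 and 0.4198 CPM in young tumours, with overlapping groups. Its exons share 110 bases with Bcl9l on the opposite strand, so its counts are uncertain. The 5 B cell markers summed to 2.26, 18.3, 21.01 and 5.49 CPM in aged and 14.6, 7.58, 10.3 and 4.45 CPM in young tumours, and Pax5 was at most 0.196 CPM. In aged 51 Cxcl13 was above the young range, and the B cell sum of 5.49 CPM was below that of 3 young tumours.

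The ligands of Ccr7, which leads dendritic cells and naive T cells to lymphoid tissue, were represented by Ccl19. Ccl19 stood at 0.557, 3.21, 4.46 and 0.596 CPM in aged and 1.84, 1.59, 4.12 and 1.04 CPM in young tumours. Ccr7 stood at 1.86, 9.61, 13.2 and 0.629 CPM in aged and 6.83, 5.66, 8.21 and 1.37 CPM in young tumours. For both genes the lowest 3 tumours were aged 46, aged 51 and young 43, and the young values lay within the range of the aged ones.

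Ccl22 and Ccl17 attract regulatory and helper T cells through Ccr4. Ccl22 stood at 2.57, 8.66, 9.399 and 0.397 CPM in aged and 6.24, 5.51, 10.3 and 1.04 CPM in young tumours, and Ccl17 at 1.11, 3.25, 3.11 and 0.397 CPM (aged) and 1.18, 1.26, 1.87 and 0.112 CPM (young). Aged 51 and young 43 were the lowest for both. Ccr4 itself was scarce, at 0.03097, 0.426, 0.561 and 0.0331 CPM in aged and 0.555, 0.333, 0.485 and 0.1399 CPM in young tumours, and Ccr8, another receptor of regulatory T cells, stood at 0.0619, 0.5902, 0.673 and 0.232 CPM (aged) and 0.312, 0.3696, 1.25 and 0.252 CPM (young).

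Xcl1, a product of NK cells and CD8 T cells, attracts cross-presenting dendritic cells through Xcr1. It stood at 0.155, 1.34, 1.68 and 0.0662 CPM in aged and 2.88, 2.07, 3.71 and 0.364 CPM in young tumours, the most negative log2 fold change of the 51 tested genes at -1.50 ± 0.96 (edgeR adjusted p = 0.923). Aged 51, aged 46 and young 43 were the lowest, in that order. Exons of Xcl1 share 98 bases with Gm20743 on the opposite strand, so its counts are uncertain. Xcr1 stood at 0.526, 1.28, 4.01 and 0.529 CPM in aged and 1.53, 1.07, 2.98 and 1.203 CPM in young tumours, and Clec9a, a marker of the same dendritic cells, at 0.341, 1.84, 4.32 and 1.65 CPM (aged) and 1.18, 1.29, 2.43 and 1.34 CPM (young). Both were highest in aged 50.

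Cxcl16, a membrane-bound chemokine of macrophages and stroma, stood at 64.9, 149.8, 144 and 57.4 CPM in aged and 189.7, 136, 161 and 106 CPM in young tumours, with a log2 fold change of -0.53 ± 0.32. Aged 46 and aged 51 were below all young tumours, and the other aged tumours were within the young range. Its receptor Cxcr6, found on resident and effector T cells, stood at 2.45, 7.08, 11.3 and 1.85 CPM in aged and 4.02, 2.37, 7.66 and 2.24 CPM in young tumours. Exons of Cxcl16 share 552 bases with Zmynd15 on the opposite strand and those of Cxcl10 share 133 bases with Art3, and the strand setting of the counting is not given in the sources used here.

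Cx3cr1, the receptor of monocytes and tissue macrophages for the membrane-bound ligand Cx3cl1, was the receptor with the highest median FPKM. It stood at 67.1, 138, 166 and 19.9 CPM in aged and 162, 158, 192 and 197 CPM in young tumours, with a log2 fold change of -0.88 ± 0.49 (edgeR adjusted p = 0.923). The young tumours lay close together, and 3 aged tumours were below them, aged 51 by far. Cx3cl1 stood at 6.04, 14.7, 22.7 and 7.05 CPM in aged and 9.26, 22.5, 14.3 and 24.4 CPM in young tumours. Of the 8 macrophage markers, Adgre1, Cd68 and Fcgr1 were lowest in aged 51, and Csf1r, C1qa, C1qb and C1qc were lowest in aged 46. Adgre1, the antigen of mature macrophages, stood at 89.8, 199, 212 and 75.8 CPM in aged and 224, 204, 235 and 194 CPM in young tumours. Mertk, a receptor for dead cells, was highest in aged 51. Their part in the Cx3cr1 values was not tested. Exons of Cx3cr1 share 78 bases with Gm33858 on the opposite strand, so its counts are uncertain.

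Cxcr2, the main chemokine receptor of neutrophils, had the smallest p among the 20 tested receptors. It stood at 36.9, 31.4, 20.8 and 35.6 CPM in aged and 13.6, 26.1, 19.6 and 14.1 CPM in young tumours, with a log2 fold change of 0.79 ± 0.27 (edgeR adjusted p = 0.923). Aged 46, aged 47 and aged 51 were above all young tumours and aged 50 was within them. S100a8, an abundant neutrophil gene, stood at 8.58, 28.1, 8.05 and 8.801 CPM in aged and 6.38, 17.4, 12.9 and 3.64 CPM in young tumours, with aged 47 and young 37 the highest. Over 6 measured neutrophil markers, of which 5 were tested, 0 passed after adjustment by edgeR (background 0%). Retnlg and Mmp8 had an unadjusted p under 0.05 with higher values in aged tumours, 2 of 5 against a background of 2.34%. The log2 fold changes of the others were 0.41 (S100a8), 0.16 (S100a9) and -0.30 (Csf3r). The 6 neutrophil markers summed to 35.5, 115, 53.1 and 32.6 CPM in aged and 42.2, 68.8, 68.3 and 27.8 CPM in young tumours. Their part in the Cxcr2 values was not tested. Cxcr1, the related receptor, had at most 5 fragments in any tumour.

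The ligands of Cxcr2 overlapped between the ages. Cxcl1 stood at 8.33, 12.1, 9.54 and 10.5 CPM in aged and 7.87, 12.05, 11.7 and 5.85 CPM in young tumours, the narrowest spread of the axis. Cxcl5 stood at 13.5, 49.3, 21.5 and 14.8 CPM in aged and 20.4, 35.3, 33.9 and 22.95 CPM in young tumours. Cxcl2 stood at 0.403, 3.18, 0.421 and 0.331 CPM in aged and 0.451, 2.88, 0.832 and 0.08396 CPM in young tumours, and Cxcl3, which did not pass the filter, at 0.217, 6.92, 0.0281 and 0 CPM (aged) and 0.104, 2.18, 0.277 and 0.05598 CPM (young). Aged 47 and young 37 were the highest tumours for all 4 genes, by a wide margin for Cxcl2 and Cxcl3 and a narrow one for Cxcl1. Aged 47 was also the highest in the neutrophil marker sum, with 115 CPM, where young 37, at 68.8 CPM, and young 40, at 68.3 CPM, were nearly equal. The part of neutrophils in these values was not tested.

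The upstream stretches of Cxcl1, Cxcl2 and Cxcl3, neighbours on chromosome 5, are shown because the last pair spanned a wide range over the tumours and Cxcl1 a narrow one. They are 250 bases each on GRCm38.p6, chr5:90890995-90891244, chr5:90903649-90903898 and chr5:90785851-90786100, all on the plus strand, with the same 4 motifs in capitals.
Cxcl1: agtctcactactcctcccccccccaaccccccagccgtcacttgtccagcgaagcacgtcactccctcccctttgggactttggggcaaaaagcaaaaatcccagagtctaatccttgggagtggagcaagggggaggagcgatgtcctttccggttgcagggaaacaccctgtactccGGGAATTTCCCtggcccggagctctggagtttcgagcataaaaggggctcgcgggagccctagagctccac
Cxcl2: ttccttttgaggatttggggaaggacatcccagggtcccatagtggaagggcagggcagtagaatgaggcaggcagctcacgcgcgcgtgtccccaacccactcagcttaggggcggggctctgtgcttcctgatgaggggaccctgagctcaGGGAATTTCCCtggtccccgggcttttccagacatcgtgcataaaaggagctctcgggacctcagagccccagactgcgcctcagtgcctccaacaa
Cxcl3: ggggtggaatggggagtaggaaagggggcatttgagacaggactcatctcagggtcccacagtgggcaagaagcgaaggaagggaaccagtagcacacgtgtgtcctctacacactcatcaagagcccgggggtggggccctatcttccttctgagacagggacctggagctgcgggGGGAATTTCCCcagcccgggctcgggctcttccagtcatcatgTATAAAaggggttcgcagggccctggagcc
All 3 hold the kB match GGGAATTTCC, overlapped by a match on the other strand that starts 1 base later, and they differ in its place. It starts at -71 in Cxcl1, -97 in Cxcl2 and -73 in Cxcl3. Cxcl3 also holds TATAAA from -30 to -25, with no match in the other two within these bases.

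Cxcl15 and Cxcl17, chemokines of epithelia, varied widely between single tumours. Cxcl15, known as lungkine, stood at 3.75, 6.26, 0.926 and 0.165 CPM in aged and 0.277, 2.62, 0.416 and 0.05598 CPM in young tumours. Cxcl17, a mucosal chemokine, stood at 11.4, 16.7, 1.49 and 0.926 CPM in aged and 0.312, 15.7, 0.0693 and 0 CPM in young tumours. The same 3 tumours, aged 46, aged 47 and young 37, were high for both, and the log2 fold change of Cxcl15 was 1.72 ± 1.20. It was 0.99 without aged 47 and 3.47 without young 37. The seminal vesicle genes were highest in young 36 and aged 50. The 7 measured prostate secretory genes summed to 67.7, 42.3, 6089 and 255 CPM in aged and 1507, 11140, 28.9 and 6.02 CPM in young tumours. Most of the sum in young 37 was Sbp (7523 CPM) and Spink1 (3580 CPM). The part of these tissues in the Cxcl15 and Cxcl17 values was not tested.

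Cxcl12, the homeostatic ligand of stromal cells, had the highest CPM of the 59 genes in 5 of the 8 tumours. It stood at 80.02, 286, 239.6 and 267 CPM in aged and 249, 297, 251 and 174 CPM in young tumours, with a log2 fold change of -0.16 ± 0.34 that became 0.11 without aged 46. Aged 46 alone was low, and its fibroblast marker sum was also the lowest, with 5772, 9980, 13846 and 13186 CPM in aged and 10632, 16422, 18483 and 13814 CPM in young tumours. Most of the sum was Col1a1 and Col1a2, at 2474 and 2984 CPM in aged 46. Pdgfra, Dcn and Pdgfrb were also lowest in aged 46, while Lum was lowest in aged 51. The part of these markers in the Cxcl12 values was not tested. Cxcr4, the signalling receptor of Cxcl12, stood at 24.4, 42.5, 20.6 and 34.6 CPM in aged and 48.6, 42.7, 42 and 22.9 CPM in young tumours, a log2 fold change of -0.35 ± 0.29. Cxcl14, another stromal and epithelial chemokine, stood at 18.5, 39.3, 51.5 and 4.83 CPM in aged and 30.02, 36.1, 46.4 and 18.3 CPM in young tumours, with aged 51 far below the rest.

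The atypical receptors clear ligands from tissue. Ackr3, which takes up Cxcl12, stood at 17.96, 25.1, 26.96 and 14.8 CPM in aged and 19.8, 18.4, 26.2 and 10.8 CPM in young tumours, with overlapping groups. Ackr1, the receptor of venules and red cells, stood at 0.495, 4.56, 4.88 and 2.28 CPM in aged and 0.797, 1.29, 3.95 and 1.01 CPM in young tumours. Ackr4, which takes up Ccl19 and related ligands, stood at 0.6503, 1.08, 2.97 and 0.827 CPM in aged and 0.693, 0.665, 0.762 and 0.08396 CPM in young tumours, with a log2 fold change of 1.31 ± 0.69 that was 0.66 without aged 50. Ackr2, which takes up inflammatory CC chemokines, stood at 0.991, 3.25, 3.34 and 0.397 CPM in aged and 3.54, 1.33, 3.08 and 1.32 CPM in young tumours. Exons of Ackr4 share 479 bases with Acad11 on the opposite strand and those of Ackr1 share 361 bases with Cadm3 on the same strand, so these counts are uncertain.

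The rest of the family was scarce. Ccl25, a chemokine of thymus and gut, stood at 5.33, 3.28, 2.52 and 9.07 CPM in aged and 3.54, 5.101, 3.12 and 2.88 CPM in young tumours, and Ccl27a, a skin chemokine, at 2.69, 2.72, 2.69 and 2.45 CPM (aged) and 2.98, 1.92, 2.32 and 1.71 CPM (young). Exons of Ccl25 share 204 bases with Elavl1 on the opposite strand, so its counts are uncertain. Ccl27a and Ccl27b are near-identical copies, so their counts are uncertain. Ccr6 and Ccr9, receptors of mucosal lymphocytes, reached at most 0.814 and 1.23 CPM, and exons of Ccr9 overlap other genes. Of the 8 genes that were not tested, Ccl26 had 0 fragments in every tumour, which allows up to 0.084 to 0.111 CPM by counting error alone. Ccl20 had at most 4 fragments, Ccr1l1 at most 10, Ccr10 at most 9 and Ccl1 at most 16, while Ccl28 had 39 fragments in aged 47 against at most 7 elsewhere.

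Ligands and their receptors were compared over the 8 tumours in 16 pairs. Among the 16 is Ccl20 with Ccr6, although Ccl20 did not pass the count filter. Ccl20 had 0, 4, 0, 0, 0, 1, 1 and 0 fragments from aged 46 to young 43. Pearson's r ran from 0.07 (Ccl11 and Ccr3) to 0.91 (Ccl19 and Ccr7) with a median of 0.62, and the other 605 combinations of a tested ligand with a tested receptor had a median of 0.44 and ran from -0.88 to 0.98. By exact two-sided permutation of r with Benjamini-Hochberg adjustment over the 16, 2 pairs passed 0.05, and 6 had an unadjusted p under 0.05. The other 605 combinations were not tested in this way, so these counts have no background share beside them. By Spearman's rho 0 of the 16 passed after adjustment.

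The pairs that passed were Ccl19 with Ccr7 and Cxcl13 with Cxcr5. For Ccl19 and Ccr7, r was 0.91 (exact permutation p = 0.0023, adjusted p = 0.036, n = 8) and rho 0.90 (exact permutation p = 0.0046, adjusted p = 0.073). Without aged 46 and aged 51, the tumours farthest from the median of Ccl19, r was 0.87 (exact permutation p = 0.0042). For Cxcl13 and Cxcr5, r was 0.86 (exact permutation p = 0.0052, adjusted p = 0.042, n = 8) and rho 0.86 (exact permutation p = 0.011, adjusted p = 0.086), and r was 0.83 without aged 47 and aged 50 (exact permutation p = 0.032). With the mean of each age group removed, r was 0.91 and 0.93 for the 2 pairs. With 1 tumour left out at a time, Ccl19 and Ccr7 had r from 0.89 to 0.94 and passed 0.05 without aged 46 or young 43 only, and the exact permutation adjusted p was 0.058 to 0.095 without each of the other 6. Cxcl13 and Cxcr5 had r from 0.80 to 0.95 and passed without young 36 or young 43 only, with an exact permutation adjusted p of 0.052 to 0.14 without each of the other 6. Without aged 50 neither passed, while Ccl2 with Ccr2 and Xcl1 with Xcr1 did (exact permutation adjusted p = 0.048 and 0.049).

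Other pairs did not pass. Ccl2 and Ccr2 had r = 0.81 (exact permutation p = 0.017, adjusted p = 0.069) and rho = 0.71 (exact permutation p = 0.058, adjusted p = 0.12), with r = 0.58 without aged 51 and young 37 (exact permutation p = 0.22). Cx3cl1 and Cx3cr1 had r = 0.69 (exact permutation p = 0.028, adjusted p = 0.075) and rho = 0.60 (exact permutation p = 0.13, adjusted p = 0.21), and r was 0.16 without aged 46 and aged 51 (exact permutation p = 0.77), so that relation rested on those tumours. The r of Ccl2 and Ccr2 was 0.49 without aged 51 alone and 0.79 to 0.90 with any other tumour left out. Ccl22 and Ccr4 had r = 0.91 without aged 51 and young 43 (exact permutation p = 0.043), from r = 0.84 over all 8 (exact permutation p = 0.012, adjusted p = 0.063) and rho = 0.76 (exact permutation p = 0.037, adjusted p = 0.12), and Ccr4 had at most 20 fragments. Cxcl12 had r = 0.55 with Cxcr4 (exact permutation p = 0.13, adjusted p = 0.21) and r = 0.23 with Ackr3 (exact permutation p = 0.56, adjusted p = 0.64), with rho of 0.67 (exact permutation p = 0.083, adjusted p = 0.15) and -0.12 (exact permutation p = 0.79, adjusted p = 0.79). Without aged 46 and young 43 these r values were 0.60 and -0.72 (exact permutation p = 0.19 and 0.11).

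**Figure D5:**
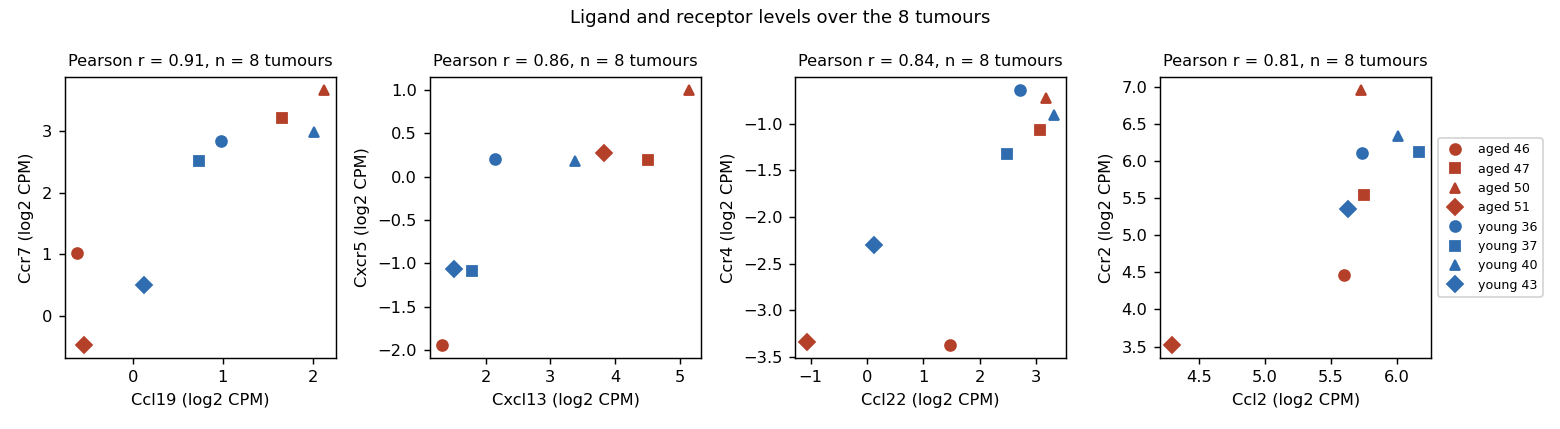
Receptor level against ligand level (both log2 CPM) in the 8 tumours for 4 ligand and receptor pairs, red for aged and blue for young. The points of Ccl19 and Ccr7 (r = 0.91) run from aged 51, aged 46 and young 43 up to aged 50, and in the panel of Ccl2 and Ccr2 (r = 0.81) aged 51 lies apart at the low end.

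Genes that act with the receptors were examined as lists. Of 33 tested genes of G protein, kinase, arrestin and migration signalling, 13 had positive (background 55.3%) and 20 negative (background 44.7%) log2 fold changes. Their median was -0.15, and 0 passed the adjusted threshold by edgeR. Only Pik3r5, a regulatory subunit of the phosphoinositide kinase that chemokine receptors switch on, had an unadjusted p under 0.05 among them (1 of 33, background 4.99%). It stood at 21.8, 28.8, 27.6 and 21.7 CPM in aged and 35.4, 29.5, 28.7 and 33.6 CPM in young tumours. Of 8 related genes outside the naming scheme, among them the platelet chemokine genes Pf4 and Ppbp and the receptor-like gene Ccrl2, 4 were positive and 4 negative, and 0 passed. Of 13 NF-kB target genes 9 were negative (background 44.7%) and 0 passed.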

How the data were processed

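RNA of 8 tumours was read as 50 bp paired ends from 1 µg of total RNA each. TopHat2 2.0.12, Picard 2.7.1, bcl2fastq and the build GRCm38 (mm10) are listed in the submitters' processing notes, without their roles. The library kit was a stranded one, per the series' design text. No source used here states the counting program, its annotation or its strand setting. The deposited values are fragment counts for 24028 Entrez genes, FPM (the CPM of each library total) and FPKM, all 3 made by the authors, per the file headers.

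The main test was edgeR's quasi-likelihood F test (edgeR 4.0.16, R 4.3.3) on the deposited counts, with filterByExpr (minimum count 10, minimum total 15), TMM factors, a robust fit and host age as the only term. The SE is the fold change over the square root of F. Printed CPM are the deposited values, and log2 CPM use a prior count of 2. Alternatives were DESeq2 1.42.0, voom with sample weights (limma 3.58.1), other scalings, filters and prior counts, and tumours left out. On counts simulated for this comparison (14423 genes), 39 of 100 genes changed 2-fold and 71 of 100 changed 4-fold were recovered with 3 false calls. The labels give every tumour its own mouse and name no batch. No library was a copy of another, since counts of the closest pair differed with a chi-square of 42.6 per degree of freedom.

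The genes, lists and pairs were chosen with earlier results of these data known. Values in every tumour are given for the 8 genes in each direction with the smallest p and an average log2 CPM of at least 0, the 10 ligands and 6 receptors with the highest median CPM, the genes of the 16 pairs, the CXCR3, CXCR2, CCR2 and CCR1 ligand groups, the atypical receptors and any gene an alternative called, except that 1 gene of the family is not reported here singly. Ccl17, Ccl24, Ccl25, Ccl27a, Cxcl14, Cxcl17, Ccr8 and the single marker genes were chosen after their values were seen. Promoters and positions are from RefSeq (GRCm38.p6), exon overlaps from GENCODE vM21.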

Additional observations from a re-analysis of the deposited data

Results flagged for a closer look

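Within each group of 4 tumours, the gap between the outermost tumour and its nearest neighbour was compared with the whole range by Dixon's 95% criterion in 106 groups (51 genes and both sums, 2 ages). It marked 5, where chance marks about 1 in 20. Ccl2 stood at 4.30 log2 CPM in aged 51, against 5.60 to 5.75 in the other aged tumours. Cxcl12 stood at 6.40 in aged 46, against 7.85 to 8.13. Cxcl2 stood at 1.65 in aged 47, against -1.28 to -1.03. Ccl17 stood at -2.52 in young 43, against 0.37 to 0.90 in the other young tumours, and Ackr4 at -2.76 in young 43, against -0.45 to -0.33.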

How the results depend on the processing

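The count of chemokine and receptor genes past the adjusted threshold was 0 by edgeR and in 16 of 17 alternatives, and 1 (Ccl6) by DESeq2. Over all genes it was 0 by edgeR, 43 by DESeq2 and 9 by voom, and 0 with any tumour left out. The median log2 fold change of the family, 0.05, went from -0.20 (without aged 50 and young 36) to 0.28 (voom), less than the spread between tumours. Of the 21 genes with a printed fold change, 19 kept their direction in every alternative that tested them. With a tumour left out, Cxcl12 went from -0.30 to 0.11 (without aged 46) and Cxcl9 from -0.62 to 0.18. Cxcl9 turned to 0.73 by voom, 0.16 without aged 46, 0.18 without aged 51, 0.12 without young 40 and 0.01 without young 43. The difference in summed ligand CPM, 33.9, went from -111 to 205 with a tumour left out, and that of receptors, -102, from -169 to -37.9. The count of correlated pairs, 2, became 4 with library size scaling, 5 with group means removed and 0 without aged 50 and young 36, and 0 to 3 with a tumour left out. With a tumour left out, the r of Ccl3 and Ccr1 went from -0.20 (without aged 47) to 0.62 and that of Ccl11 and Ccr3 from -0.32 to 0.31. The latter was -0.04 without aged 50, -0.32 without aged 51 and -0.00 without aged 50 and young 36. The cause of these changes was not tested. The pairs were not run without 3 tumours, which leaves 5. No paired analysis was possible because the aged and young tumours share no replicate numbers. Genes under 3 fragments (0.084 to 0.111 CPM) were not detectable at this depth.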
